A study of Mus musculus with 12 samples.

Results

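The genes described here make the pre-B cell receptor, cut and extend the gene segments of the antibody loci, or mark the early stages at which both happen. The list held 10 genes, Vpreb1, Vpreb2, Vpreb3, Igll1, Rag1, Rag2, Dntt, Cd93, Bst1 and Arpp21, and their probe sets were taken by gene symbol from the platform annotation, with the probe set of the highest mean standing for each gene. Of the 10 genes, 9 had a probe set annotated to that gene alone, and all 9 were among the 10287 genes tested out of 18194 genes on the array. Vpreb2 was represented only by a probe set annotated to both Vpreb2 and Vpreb1, which is reported as that shared probe set.

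Bone marrow cells carrying B220 (CD45R), a phosphatase form found on B-lineage cells, were pulled out with magnetic beads, and RNA from each sample was read on its own Affymetrix array. The 12 arrays fell into 4 groups of 3 littermate samples each, all from mice of 4 to 6 weeks whose background was 94% C57BL/6. The groups were precancerous Eµ-Myc;Eµ-TTP-1 mice with both transgenes (Myc TTP), precancerous Eµ-Myc mice (Myc), Eµ-TTP-1 mice (TTP) and wild-type mice. Eµ is the enhancer of the immunoglobulin heavy chain locus, which directs a transgene to the B lineage, Myc is a growth-promoting transcription factor, and TTP (tristetraprolin, encoded by Zfp36) is an RNA-binding protein that speeds the decay of AU-rich mRNAs. Samples within a group are biological replicates by their labels.

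A developing B cell first assembles its heavy chain gene from V, D and J segments. The RAG1 and RAG2 proteins together cut the DNA beside the segments, and TdT, the product of Dntt, adds bases at the joints without a template. The new heavy chain is then tested on the surface with a surrogate light chain, made of a VpreB protein and lambda5 (Igll1), in the pre-B receptor, whose signal leads to a burst of division before the light chain genes are joined.

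The group labels were first checked against the transgenes and the captured lineage. The Myc probe set had intensities of 3617, 6801 and 10551 on the Myc TTP arrays, of 13361, 15451 and 8163 with Myc alone, 1060, 1343 and 11360 on the TTP arrays, and 805, 819 and 6411 on the wild-type arrays. For Myc, the array labelled TTP 3 and the array labelled wild type 3 thus lay with the Myc-labelled arrays, against their labels. For the 9 genes, calls in the comparisons that use these arrays are given with and without them, and differences for all or some of the genes. The gene lists, the tests between pairs of genes, the pan-B centring and the counts of groups that do not overlap are given with all 12 arrays only. Zfp36 was not higher on arrays labelled TTP, with intensities of 177 to 579 with both transgenes against 623 to 1022 with Myc alone, and 878 to 952 with TTP alone against 892 to 1663 in wild type. Whether its probe set reads the transgene's mRNA is not given in the sources used here. The B-lineage genes Ptprc, Cd79a, Cd79b, Pax5 and Ebf1 were above the detection floor (a log2 intensity of 4) on all 12 arrays. A single principal component carried 73.5% of the variance among tested genes. Beads enrich a mixture of cells, so a lower level on an array can mean fewer cells of an early stage or less mRNA in each cell, and these cannot be told apart here.

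All 9 measured genes fell with Myc when the Myc TTP and Myc arrays were set against the TTP and wild-type arrays, by 1.5-fold for Vpreb3 to 5.48-fold for Dntt, although Vpreb3 and Rag2 turned positive without a call when each array was centred on B-lineage genes. This comparison averages the Myc over wild type and the Myc TTP over TTP differences on the log2 scale, in a limma fit across all 10287 genes with Benjamini-Hochberg adjustment, and a gene was called at an adjusted p under 0.05. Called lower in it were 9 of 9 here and 24.6% of all tested genes. No gene of the 9 had the 6 Myc-bearing arrays wholly below the other 6, as 0.865% of all tested genes did. The median difference of the 9 genes was -1.44 on the log2 scale, beside -0.06 over all tested genes. In both of the separate Myc differences, which share no arrays, all 9 genes were lower as deposited, as were 40.4% of the tested genes, with the turns of sign of Vpreb3, Rag2 and, for Myc TTP over TTP, Arpp21 under the centring. The genes are taken in turn below by role, each with its log2 intensity on every array.

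**Figure D1:**
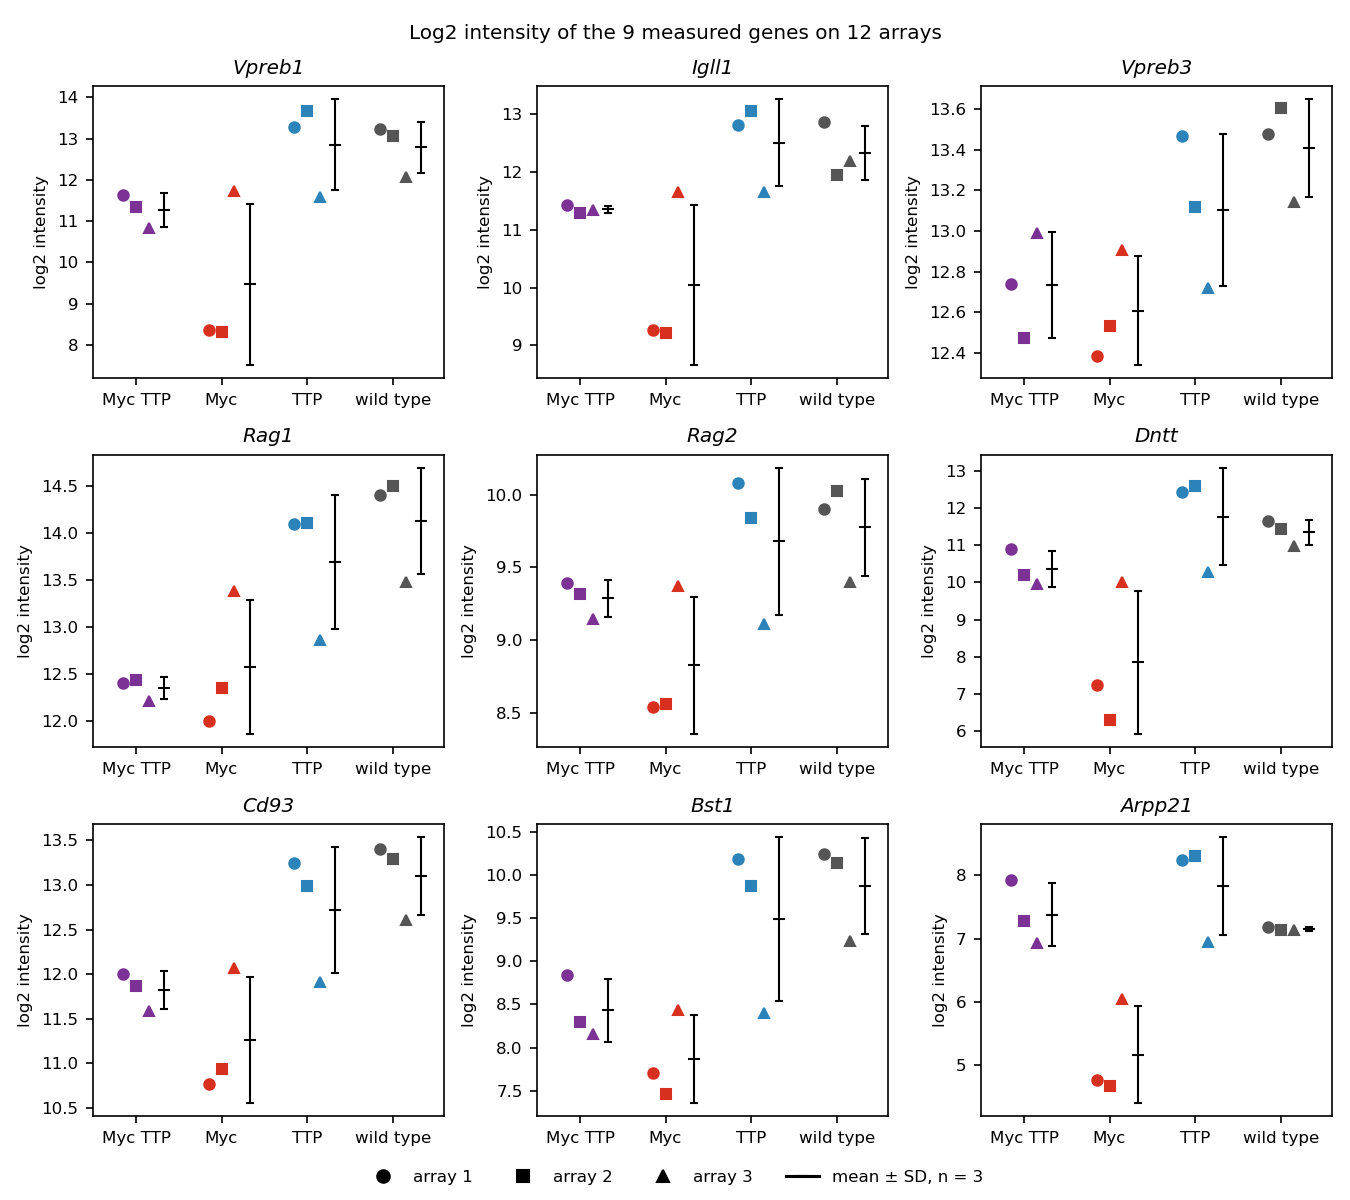
Log2 intensity of the 9 measured genes (y axis, a separate scale for each gene) on the 12 arrays by group (x axis), with symbols for the array number and bars for the mean ± SD of 3 arrays. Vpreb1, Igll1, Dntt and Arpp21 are lowest on Myc arrays 1 and 2. Myc array 3 lies near the Myc TTP arrays for Vpreb1, Igll1 and Dntt, and below them for Arpp21.

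The surrogate light chain genes come first. Vpreb1 (chromosome 16, bases 16868401 to 16869255) and Igll1 (chromosome 16, bases 16860671 to 16863985) lie 4415 bases apart in GRCm38.p6, and Vpreb2 lies further along the same chromosome, from base 17979445 to 17981274. The 250 bases before an annotated start of each gene are shown because Vpreb1 and Igll1 moved together, with Rag1 for comparison, as RefSeq gives them in GRCm38.p6. Vpreb2 is shown beside them, although it has no measurement of its own. Capitals mark matches on either strand to CAGGTG, the E-box bound by E2A proteins, to CAGCTG, another E-box, to TGGGAA, a core of Ikaros sites, and to CCCNNGGG, a core of EBF sites. Vpreb1 is read on the minus strand at chr16:16869256-16869505, Vpreb2 on the plus strand at chr16:17980315-17980564 (before the transcript start used in the promoter table, which lies inside the annotated span of the gene), Igll1 on the minus strand at chr16:16863986-16864235, and Rag1 on the minus strand at chr2:101649533-101649782.
Vpreb1: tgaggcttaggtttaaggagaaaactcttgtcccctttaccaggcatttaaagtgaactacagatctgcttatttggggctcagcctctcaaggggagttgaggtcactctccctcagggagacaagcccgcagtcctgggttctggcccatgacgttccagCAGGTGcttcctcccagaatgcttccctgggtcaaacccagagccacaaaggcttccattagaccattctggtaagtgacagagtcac
Vpreb2: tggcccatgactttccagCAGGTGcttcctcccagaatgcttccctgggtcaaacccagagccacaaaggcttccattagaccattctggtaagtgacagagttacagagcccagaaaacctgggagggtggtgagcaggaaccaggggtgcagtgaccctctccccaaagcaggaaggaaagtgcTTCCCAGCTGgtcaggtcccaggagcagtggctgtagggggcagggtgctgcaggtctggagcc
Igll1: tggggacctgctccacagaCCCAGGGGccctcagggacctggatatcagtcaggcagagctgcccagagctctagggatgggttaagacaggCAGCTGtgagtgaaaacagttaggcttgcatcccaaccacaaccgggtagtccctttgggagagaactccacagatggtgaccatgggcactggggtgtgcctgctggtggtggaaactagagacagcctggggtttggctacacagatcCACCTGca
Rag1: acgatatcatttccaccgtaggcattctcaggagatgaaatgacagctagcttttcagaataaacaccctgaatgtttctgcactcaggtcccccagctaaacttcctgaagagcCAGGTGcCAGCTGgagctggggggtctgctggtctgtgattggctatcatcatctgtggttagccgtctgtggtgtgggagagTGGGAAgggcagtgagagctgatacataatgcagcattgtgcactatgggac
The Vpreb1 and Vpreb2 windows share a stretch of 106 bases without gaps in which 104 are identical, and it holds the CAGGTG match of both. Windows for Vpreb3, Rag2 and Dntt were searched too, which made 7 windows. CAGGTG was found in 4 of the 7 windows (Vpreb1, Vpreb2, Igll1 and Rag1) and in 17.22% of 32817 such windows of all genes. CAGCTG was found in 3 of 7 (Vpreb2, Igll1 and Rag1; 13.01% of all), TGGGAA in 2 of 7 (Vpreb2 and Rag1; 21.6% of all) and CCCNNGGG in 1 of 7 (Igll1; 11.82% of all). In Vpreb2 the TGGGAA match on the reverse strand overlaps the CAGCTG match. Neither CACGTG, the E-box bound by Myc with Max, nor GTAAACA, a FOXO core, occurred in these 7 windows, and they occur in 6.02% and 3.16% of all windows. A match describes letters in the window and does not show that a factor binds there.

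Vpreb1 encodes a VpreB chain of the surrogate light chain. Its log2 intensity was 11.64, 11.33 and 10.84 on the Myc TTP arrays, 8.37, 8.30 and 11.73 on Myc arrays, 13.29, 13.66 and 11.60 on the TTP arrays, and 13.23, 13.06 and 12.07 on the wild-type arrays. Myc arrays 1 and 2 were far below the other 10 arrays, and Myc array 3 lay above all 3 Myc TTP arrays. The Myc group did not overlap the wild-type group, at means of 9.47 ± 1.96 and 12.79 ± 0.63 (SD, n = 3 each), a difference of -3.32 ± 0.83 (SE) on the log2 scale (9.99-fold lower, adjusted p = 0.0479 in the limma fit). Averaged over both Myc differences, Vpreb1 fell by 2.45 ± 0.59 on the log2 scale, or 5.47-fold (limma, adjusted p = 0.0169).

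The probe set shared by Vpreb2 and Vpreb1 had log2 intensities of 9.78, 9.38 and 8.78 on the Myc TTP arrays, 6.29, 6.05 and 9.72 on Myc arrays, 11.83, 11.97 and 9.59 on the TTP arrays, and 11.42, 11.08 and 10.23 on the wild-type arrays. It thus ordered the arrays much as the Vpreb1 probe set did, and it cannot say which of the 2 genes gave the signal. In a limma fit of every probe set on the array, its difference was -3.56 ± 0.91 for Myc over wild type (adjusted p = 0.0607) and -2.69 ± 0.64 for the mean of both Myc differences (adjusted p = 0.0219).

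Igll1 encodes lambda5, the other chain of the surrogate light chain. Its log2 intensity was 11.42, 11.29 and 11.34 on the Myc TTP arrays, 9.27, 9.22 and 11.65 on Myc arrays, 12.82, 13.05 and 11.65 on the TTP arrays, and 12.86, 11.95 and 12.18 on the wild-type arrays. The Myc TTP arrays were nearly level with each other and below every TTP and wild-type array, while Myc array 3 reached the level of TTP array 3. Igll1 fell by 2.28 ± 0.58 on the log2 scale for Myc over wild type (4.86-fold, limma adjusted p = 0.0479) and its difference was -1.72 ± 0.41 over both (3.29-fold lower, adjusted p = 0.0169).

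Vpreb3 (chromosome 10, bases 75943024 to 75949657) encodes a VpreB-related protein of the endoplasmic reticulum that binds antibody chains and that B cells keep after the surrogate light chain is gone. Its log2 intensity was 12.74, 12.47 and 12.99 on the Myc TTP arrays, 12.39, 12.53 and 12.91 on Myc arrays, 13.47, 13.12 and 12.72 on the TTP arrays, and 13.48, 13.61 and 13.14 on the wild-type arrays. The Myc and wild-type groups did not overlap, and the whole spread over 12 arrays was small beside that of Vpreb1. Vpreb3 fell by 0.80 ± 0.21 for Myc over wild type (1.74-fold, limma adjusted p = 0.0479) and its difference was -0.58 ± 0.15 over both (1.5-fold lower, adjusted p = 0.0171), but relative to B-lineage genes (below) both differences were positive and not called.

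Rag1 and Rag2 encode the subunits of the recombinase and are neighbours on chromosome 2, with 5723 bases between them. Rag1 had log2 intensities of 12.40, 12.44 and 12.22 on the Myc TTP arrays, 12.01, 12.35 and 13.38 on Myc arrays, 14.09, 14.11 and 12.87 on the TTP arrays, and 14.40, 14.50 and 13.48 on the wild-type arrays. For Rag1 the Myc TTP arrays lay about as low as Myc arrays 1 and 2, and they did not overlap the TTP arrays. Its difference was -1.55 ± 0.41 for Myc over wild type (limma adjusted p = 0.0479), -1.33 ± 0.41 for Myc TTP over TTP (adjusted p = 0.0641), and -1.44 ± 0.29 over both (2.71-fold lower, adjusted p = 0.0169).

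Rag2 had log2 intensities of 9.39, 9.32 and 9.14 on the Myc TTP arrays, 8.54, 8.56 and 9.37 on Myc arrays, 10.08, 9.84 and 9.11 on the TTP arrays, and 9.90, 10.03 and 9.40 on the wild-type arrays. The Myc and wild-type groups were separate by a narrow margin, between Myc array 3 and wild-type array 3. Rag2 was the gene not called for Myc over wild type, at -0.95 ± 0.29 (limma adjusted p = 0.0529). It fell by 0.67 ± 0.21 over both Myc differences (1.59-fold, adjusted p = 0.0260), a call that was lost when any of 7 of the 12 arrays was left out (adjusted p of 0.0562 to 0.0671) and whose sign turned relative to B-lineage genes.

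Dntt (chromosome 19, bases 41029275 to 41059525) had the largest Myc difference of the 9 genes as deposited, with Vpreb1 close beside it. Its log2 intensity was 10.89, 10.19 and 9.97 on the Myc TTP arrays, 7.24, 6.30 and 10.01 on Myc arrays, 12.44, 12.59 and 10.28 on the TTP arrays, and 11.64, 11.43 and 10.97 on the wild-type arrays. Myc arrays 1 and 2 were again far below the rest, whereas Myc array 3 lay among the Myc TTP arrays. Dntt fell by 3.49 ± 0.84 for Myc over wild type (11.3-fold, limma adjusted p = 0.0479) and its difference was -2.45 ± 0.60 over both (5.48-fold lower, adjusted p = 0.0169).

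Cd93, Bst1 and Arpp21 are used as markers of the early B-cell stages. Cd93 encodes a C-type lectin-like receptor that B cells lose as they mature, and it is also found on myeloid and progenitor cells. Its log2 intensity was 12.005, 11.86 and 11.58 on the Myc TTP arrays, 10.77, 10.94 and 12.07 on Myc arrays, 13.25, 12.99 and 11.91 on the TTP arrays, and 13.40, 13.29 and 12.60 on the wild-type arrays. Cd93 fell by 1.84 ± 0.40 for Myc over wild type (3.59-fold, limma adjusted p = 0.0479) and its difference was -1.37 ± 0.28 over both (2.59-fold lower, adjusted p = 0.0169).

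Bst1 encodes CD157, a surface enzyme related to CD38 that is present on early B cells, myeloid cells and stromal cells. It had log2 intensities of 8.84, 8.30 and 8.15 on the Myc TTP arrays, 7.71, 7.46 and 8.44 on Myc arrays, 10.18, 9.87 and 8.41 on the TTP arrays, and 10.23, 10.14 and 9.23 on the wild-type arrays. As for Cd93, TTP array 3 was close to Myc array 3, and the other TTP arrays stood with the wild-type arrays. The difference was -1.999 ± 0.46 for Myc over wild type (4.00-fold lower, limma adjusted p = 0.0479) and -1.53 ± 0.32 over both Myc differences (2.88-fold lower, adjusted p = 0.0169).

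Arpp21 encodes an RNA-binding phosphoprotein known from neurons and from immature lymphocytes. Its log2 intensity was 7.92, 7.28 and 6.93 on the Myc TTP arrays, 4.77, 4.67 and 6.04 on Myc arrays, 8.25, 8.31 and 6.94 on the TTP arrays, and 7.18, 7.14 and 7.14 on the wild-type arrays. The 3 Myc arrays were the lowest of the 12, and the Myc TTP arrays overlapped the wild-type arrays. Arpp21 fell by 1.99 ± 0.44 for Myc over wild type (3.98-fold, limma adjusted p = 0.0479) and its difference was -1.22 ± 0.31 over both (2.33-fold lower, adjusted p = 0.0171). The second difference was not called relative to B-lineage genes, at -0.38 (adjusted p = 0.157).

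For Myc over wild type alone, 8 of the 9 genes were called lower, all but Rag2, beside 10.6% of all tested genes, and with pan-B centring Vpreb3 and Rag2 turned positive. The Myc and wild-type groups did not overlap for any of the 9 genes, and the same held, with the Myc group lower, for 41.3% of all tested genes. The 8 calls stood close to the threshold, since the smallest adjusted p over all genes was 0.0479. No gene of the 9 was called when either of wild-type arrays 1 and 2, TTP array 1, either of Myc arrays 1 and 2, or any 1 Myc TTP array was left out, and all 9 were called without wild-type array 3, without TTP array 3 or without Myc array 3. Of all tested genes, 0% were called lower in the fits with no call here, and 17.8% to 30.6% in the 3 fits with 9 calls. The mean of both Myc differences had 8 or 9 genes called lower whichever single array was left out, beside 11.6% to 36.1% of all tested genes.

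Once arrays wild type 3 and TTP 3 were left out, the Myc differences were larger. Over both Myc differences, the difference was then -2.94 ± 0.59 for Vpreb1, -2.92 ± 0.59 for Dntt, -1.97 ± 0.44 for Igll1, -1.96 ± 0.21 for Bst1 and -1.80 ± 0.22 for Rag1 on the log2 scale. It was -1.698 ± 0.23 for Cd93, -1.45 ± 0.30 for Arpp21, -0.91 ± 0.17 for Rag2 and -0.75 ± 0.13 for Vpreb3. All 9 genes were called lower, beside 37% of all tested genes, at limma adjusted p-values of 0.000141 to 0.00345. In the same fit of 10 arrays all 9 were called lower for Myc over wild type, beside 34.3% of all tested genes. TTP array 3 was the lowest TTP array for all 9 genes, and wild-type array 3 the lowest wild-type array for most of them. Leaving them out therefore raises the Myc differences, and these calls and p-values are no independent test.

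B-lineage genes themselves were lower with Myc, so the 9 genes were also set against them by centring each array on the median of 16 pan-B genes. This shifted the median of all tested genes for the mean of both Myc differences from -0.06 to 0.79 on the log2 scale, and changes are read against that shift. Then 6 of the 9 genes were called lower, beside 6.15% of all tested genes, namely Dntt at -1.61, Vpreb1 at -1.61, Igll1 at -0.88, Bst1 at -0.68, Rag1 at -0.60 and Cd93 at -0.53 (limma adjusted p of 0.00372 to 0.0151). Vpreb3 and Rag2 were at 0.26 and 0.17 with this centring, and Arpp21 at -0.38, none of them called.

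**Figure D2:**
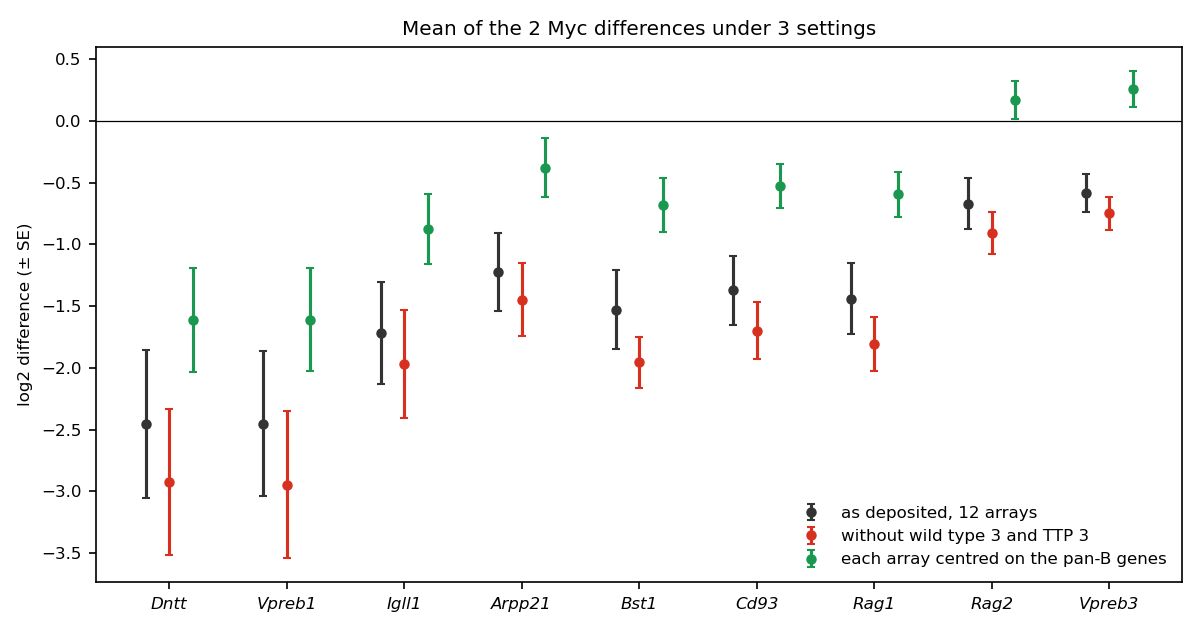
Mean of the Myc over wild type and Myc TTP over TTP differences (y axis, log2 scale, ± SE) for the 9 genes (x axis), with all 12 arrays as deposited, with arrays wild type 3 and TTP 3 left out, and with each array centred on pan-B genes. Dntt, Vpreb1, Igll1, Bst1, Cd93 and Rag1 are called lower in all 3 settings, and Rag2 and Vpreb3 turn positive with the centring.

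The sizes of the Myc differences were compared between genes, each as the mean of both differences, by exact two-sided permutation of the Myc labels within TTP status (400 relabellings, smallest possible p of 0.005). Of 36 pairs of genes, 15 had a Benjamini-Hochberg adjusted p under 0.05. Rag1 fell more than its neighbour Rag2, by 0.77 on the log2 scale (exact p = 0.005, adjusted p = 0.0415), and Vpreb1 fell more than Vpreb3, by 1.87 (exact p = 0.01, adjusted p = 0.0415). Dntt fell more than Arpp21, by 1.23 (exact p = 0.01, adjusted p = 0.0415). The Vpreb1 and Igll1 differences, -2.45 and -1.72, did not differ past the threshold (exact p = 0.035, adjusted p = 0.0741). Probe sets differ in how fully they follow a change in mRNA, so these are differences in measured signal.

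**Figure D3:**
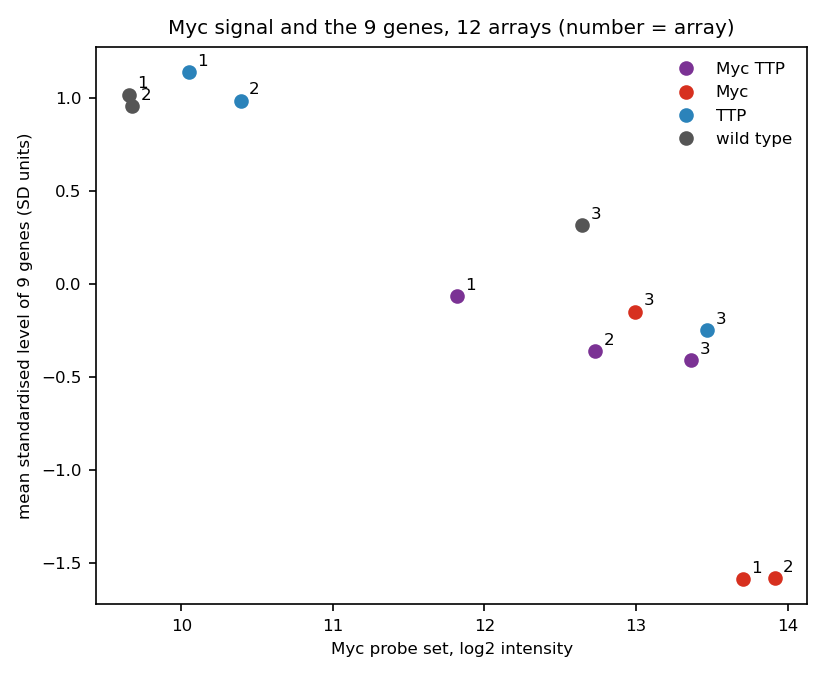
Mean standardised log2 level of the 9 genes (y axis, SD units, each gene scaled over the 12 arrays) against the log2 intensity of the Myc probe set (x axis), 1 point per array with its array number. Myc arrays 1 and 2 sit at -1.59 and -1.58, and TTP array 3, with a Myc level of 13.47, sits at -0.25 beside Myc array 3 at -0.15.

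The arrays can also be ordered by the mean standardised level of the 9 genes, in which each gene is scaled to SD units over the 12 arrays. This level was -0.07, -0.36 and -0.41 on the Myc TTP arrays, -1.59, -1.58 and -0.15 on Myc arrays, 1.14, 0.98 and -0.25 on the TTP arrays, and 1.02, 0.96 and 0.32 on the wild-type arrays. Myc arrays 1 and 2 stood apart at the low end, the 4 TTP and wild-type arrays numbered 1 and 2 stood together at the high end, and the other 6 arrays lay between them, including the 4 arrays numbered 3.

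Within mice that carried the Myc transgene, the Myc TTP arrays were compared with the Myc arrays. In this limma fit the Myc probe set itself differed by -0.90 ± 0.95 (adjusted p = 0.576). Zfp36 differed by -1.12 ± 0.39 (adjusted p = 0.197), so it was not higher with the TTP transgene. The part of the Myc level in the differences of the 9 genes was not tested. No gene of the 9 was called (0% of all tested genes were), and 3 of the 9 were higher at an unadjusted p under 0.05, beside 18.2% of all tested genes. The Myc TTP mean was higher for 8 of the 9 genes, all but Rag1 at -0.22 ± 0.41, with Vpreb3, at 0.13 ± 0.21, turning negative under quantile normalization, median centring and pan-B centring. Arpp21 was the 1 gene whose groups did not overlap, at means of 7.38 ± 0.50 on the Myc TTP arrays and 5.16 ± 0.77 on the Myc arrays (SD, n = 3 each), a difference of 2.22 ± 0.44 (limma adjusted p = 0.156). Across all tested genes, 32.3% had Myc TTP values that lay wholly above the Myc values. Dntt differed by 2.501 ± 0.84 (adjusted p = 0.188), Vpreb1 by 1.80 ± 0.83 (adjusted p = 0.267) and Igll1 by 1.30 ± 0.58 (adjusted p = 0.258) in the same limma fit. A second tested Arpp21 probe set, closer to the detection floor, had overlapping groups. Its difference was 0.59 ± 0.46 in the limma fit of every probe set (adjusted p = 0.513).

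Myc array 3 had higher levels of all 9 genes than Myc arrays 1 and 2. Without Myc array 3, Arpp21 was called higher on the Myc TTP arrays, by 2.66 on the log2 scale (limma adjusted p = 0.0359), and no other of the 9 was. Without the 4 arrays numbered 3, which leaves 2 arrays in each group, 7 of the 9 were called higher, all but Vpreb3 and Rag1, beside 14.1% of all tested genes. Dntt then differed by 3.77 ± 0.30, Vpreb1 by 3.15 ± 0.15 and Arpp21 by 2.88 ± 0.25 (limma adjusted p of 7.24e-06 to 0.000241). Both settings leave out Myc array 3, the Myc array on which the 9 genes were highest. Their calls and p-values therefore describe the remaining arrays and are no independent test of the TTP difference.

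Myc TTP over TTP gave the Myc difference among mice with the TTP transgene. All 9 genes were lower on the Myc TTP arrays as deposited, with Vpreb3, Rag2 and Arpp21 turning positive under pan-B centring, and none was called (0% of all tested genes were). Rag1, Cd93 and Bst1 were lower at an unadjusted p under 0.05, beside 9.89% of all tested genes. Igll1 and Rag1 were wholly lower on the Myc TTP arrays, as were 5.36% of all tested genes, with differences of -1.15 ± 0.58 for Igll1 (limma adjusted p = 0.173) and -1.33 ± 0.41 for Rag1 (adjusted p = 0.0641). With arrays wild type 3 and TTP 3 left out, Vpreb3, Rag1, Rag2, Cd93 and Bst1 were called lower, beside 21.9% of all tested genes, with Rag1 at -1.74 ± 0.31 (adjusted p = 0.00314) and Bst1 at -1.59 ± 0.30 (adjusted p = 0.00379). Without the 4 arrays numbered 3, 8 of the 9 were called lower, all but Arpp21, beside 21.8% of all tested genes. Both settings leave out TTP array 3, the TTP array on which the 9 genes were lowest, so their calls and p-values are no independent test.

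The TTP transgene alone, TTP over wild type, gave no called gene among the 9 or among all tested genes (0%), with 0 of the 9 and 1.45% of all tested genes at an unadjusted p under 0.05. The 9 differences ran from -0.44 for Rag1 to 0.68 for Arpp21 on the log2 scale, and the 95% intervals of the limma fit were wide, from -1.77 to 1.90 for Vpreb1 and from -0.30 to 1.65 for Arpp21. For Vpreb1, changes up to those limits in either direction were not excluded by 3 arrays per group. The Arpp21 interval reached further up than down. With arrays wild type 3 and TTP 3 left out, the differences ran from -0.35 ± 0.34 for Rag1 to 1.12 ± 0.46 for Arpp21, with Dntt at 0.98 ± 0.91 and Vpreb1 at 0.33 ± 0.92, and none of the 9 was called, beside 0.00972% of all tested genes. The interaction is the Myc TTP over Myc difference less the TTP over wild type difference. It was positive for all 9 genes as deposited. It turned negative for Vpreb3, Rag1 and Rag2 under pan-B centring and for Rag1 under median centring. As deposited it was called for no gene of the 9 (0% of all tested genes were). Its largest value was 2.08 ± 1.19 for Dntt (limma adjusted p = 0.432), and 1 of the 9, Arpp21 at 1.54 ± 0.63 (adjusted p = 0.362), was positive at an unadjusted p under 0.05, beside 12.8% of all tested genes. With arrays wild type 3 and TTP 3 left out it was 1.52 ± 1.18 for Dntt and 1.10 ± 0.59 for Arpp21, and none of the 9 was called (0% of all tested genes were). Without the 4 arrays numbered 3, the interaction was called positive for 5 of the 9 (Vpreb1, Igll1, Dntt, Cd93 and Arpp21), beside 2.2% of all tested genes. That setting leaves out Myc array 3, the Myc array on which the 9 genes were highest, so its calls are no independent test.

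**Figure D4:**
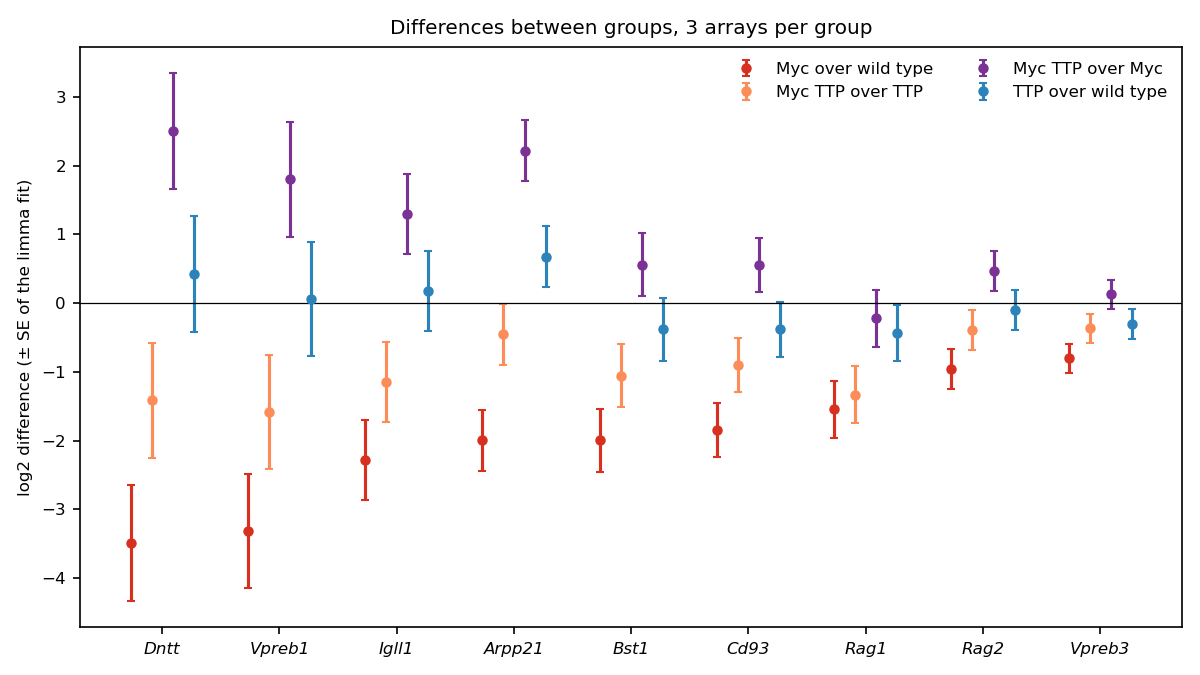
Log2 differences between groups (y axis, ± SE of the limma fit, 3 arrays per group) for the 9 genes (x axis), as deposited. Genes stand in the order of the Myc over wild type difference, except that Arpp21 is placed before Bst1. The Myc over wild type values run from -3.49 for Dntt to -0.80 for Vpreb3, and the Myc TTP over Myc value of Arpp21 is 2.22; the signs of Vpreb3, Rag2 and, for Myc TTP over TTP, Arpp21 turn with pan-B centring.

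The genes whose products join the cut ends moved in both directions. Of 18 listed genes of this step 16 were tested, and over both Myc differences 4 were called higher and 2 lower, with a median of -0.01 on the log2 scale, beside -0.06 over all tested genes. Among all tested genes, 43.2% were called in either direction and 24.6% called lower. Xrcc5, which encodes Ku80, rose by 1.29 ± 0.37 (limma adjusted p = 0.0215), and Atm, Rad50 and Mre11a, which sense the break, rose by 0.44 to 0.49. As deposited, Polm, a polymerase of the joining step, fell by 0.68 ± 0.18 (adjusted p = 0.0186), and Lig4, the ligase, fell by 0.40 ± 0.13 (adjusted p = 0.0329). For Myc over wild type Polm, Lig4 and Xrcc6 were called lower, at -1.11, -0.73 and -0.44, and none of the 16 higher, beside 10.6% of all tested genes called lower. Relative to pan-B genes, 15 of the 16 were called higher and none lower over both Myc differences, at a median of 0.83 beside 0.79 for all tested genes, and Polm and Lig4 turned positive. In that setting 77.6% of all tested genes were called in either direction and 6.15% called lower.

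The signalling partners of the pre-B receptor fell in most cases as deposited. Of 14 tested genes of the receptor's signalling subunits and first signalling steps, 10 were called lower and none higher over both Myc differences (median -0.58 on the log2 scale). Among all tested genes 24.6% were called lower, at a median of -0.06. The difference was -0.48 ± 0.12 for Cd79a, a signalling subunit, -0.59 ± 0.13 for Syk, the kinase it recruits, -0.46 ± 0.12 for Blnk, an adaptor, and -0.9997 ± 0.21 for Pik3ap1, an adaptor to PI3-kinase (limma adjusted p of 0.0169 to 0.0186). Relative to pan-B genes, which include Cd79a and Blnk, 6 of the 14 were called higher and 2 lower, and Cd79a, Syk and Blnk turned positive. In that setting 77.6% of all tested genes were called in either direction and 6.15% called lower, at a median of 0.79. Whether the surrogate light chain genes differed from these partners was not tested.

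Of 25 transcription factors and upstream signals listed as regulators of these genes, all 25 were tested, 19 were called lower and none higher over both Myc differences (median -0.69), beside 24.6% of all tested genes called lower. Foxo1, an activator of Rag1 and Rag2 transcription, fell by 1.37 ± 0.29 (limma adjusted p = 0.0169), and the differences were -1.01 ± 0.21 for Irf8 and -1.696 ± 0.42 for Il7r, the IL-7 receptor chain (adjusted p = 0.0169 for each). For Ebf1 and Pax5, which set the B-cell programme, they were -0.86 ± 0.19 (adjusted p = 0.0169) and -0.81 ± 0.27 (adjusted p = 0.0324). Tcf3, which encodes the E2A proteins, was at -0.15 ± 0.07 (adjusted p = 0.103). Its separate limma differences had opposite signs. Tcf3 was called lower for Myc over wild type, at -0.43 ± 0.10 (adjusted p = 0.0479), and was at 0.13 ± 0.10 for Myc TTP over TTP (adjusted p = 0.346). Relative to pan-B genes it was called higher over both Myc differences, at 0.69 (adjusted p = 0.00347). With pan-B centring 8 of the 25 were called higher and 4 lower, at a median of 0.16. Of all tested genes, 77.6% were then called in either direction and 6.15% called lower, at a median of 0.79. Ebf1 and Pax5 are themselves among the pan-B genes used for the centring.

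Markers of neighbouring B-cell stages fell as well. Of 18 other early B-lineage markers tested, 15 were called lower over both Myc differences (median -0.88), among them Atp1b1 at -1.71 ± 0.29 and Il7r, and of 14 mature B-cell markers 9 were called lower (median -0.76), among them Fcer2a, the low-affinity IgE receptor, at -3.13 ± 0.53 and Cd40 at -2.11 ± 0.37 (limma adjusted p = 0.0169 for each). None of either list was called higher, and 24.6% of all tested genes were called lower. With pan-B centring 7 of the 18 early markers and 5 of the 14 mature markers were called lower, and 4 of each list higher, beside 6.15% of all tested genes called lower. Of 13 cycling genes, Aurkb, Cdk1 and Plk1 were called higher, by 0.33 to 0.48, and none lower. As deposited, 43.2% of all tested genes were called in either direction and 24.6% called lower. With pan-B centring all 13 were called higher (median 0.94, beside 0.79 for all tested genes), where 77.6% of all tested genes were called and 6.15% called lower.

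Genes of other marrow cells moved in the same direction as the 9 genes. All 15 granulocyte markers were called lower over both Myc differences (median -3.27 on the log2 scale), and their mean log2 intensity ran from 10.1 to 11.4 on the Myc TTP arrays, from 6.18 to 11.7 on the Myc arrays, from 11.3 to 13.3 on the TTP arrays and from 11.9 to 12.9 on the wild-type arrays. Also called lower were 6 of 7 erythroid, 6 of 6 monocyte and macrophage, 6 of 7 natural killer cell, 7 of 7 plasmacytoid dendritic cell, 4 of 6 plasma cell and 4 of 5 stem and progenitor markers, and none of these lists had a gene called higher. Among all tested genes 24.6% were called lower. With pan-B centring 13 of the 15 granulocyte (median -2.43), 5 of the 7 erythroid, 2 of the 6 monocyte and macrophage, 6 of the 7 natural killer cell, 4 of the 7 plasmacytoid dendritic cell, 2 of the 6 plasma cell and 2 of the 5 stem and progenitor markers were called lower, and 1 plasma cell marker higher. In that setting 6.15% of all tested genes were called lower and 77.6% in either direction. Of the T-cell and thymocyte markers 7 did not pass the detection filter, and of the 2 tested Cd8a was called higher, at 0.71 ± 0.23, and Cd3d lower, at -1.06 ± 0.31. The Cd3d call was lost with quantile normalization (-0.50, limma adjusted p = 0.109) and with pan-B centring (-0.22, adjusted p = 0.474). Cd93 and Bst1 are also expressed by myeloid cells, and Rag1, Rag2 and Dntt by immature T cells, and the part of these cells in the results was not tested.

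**Figure D5:**
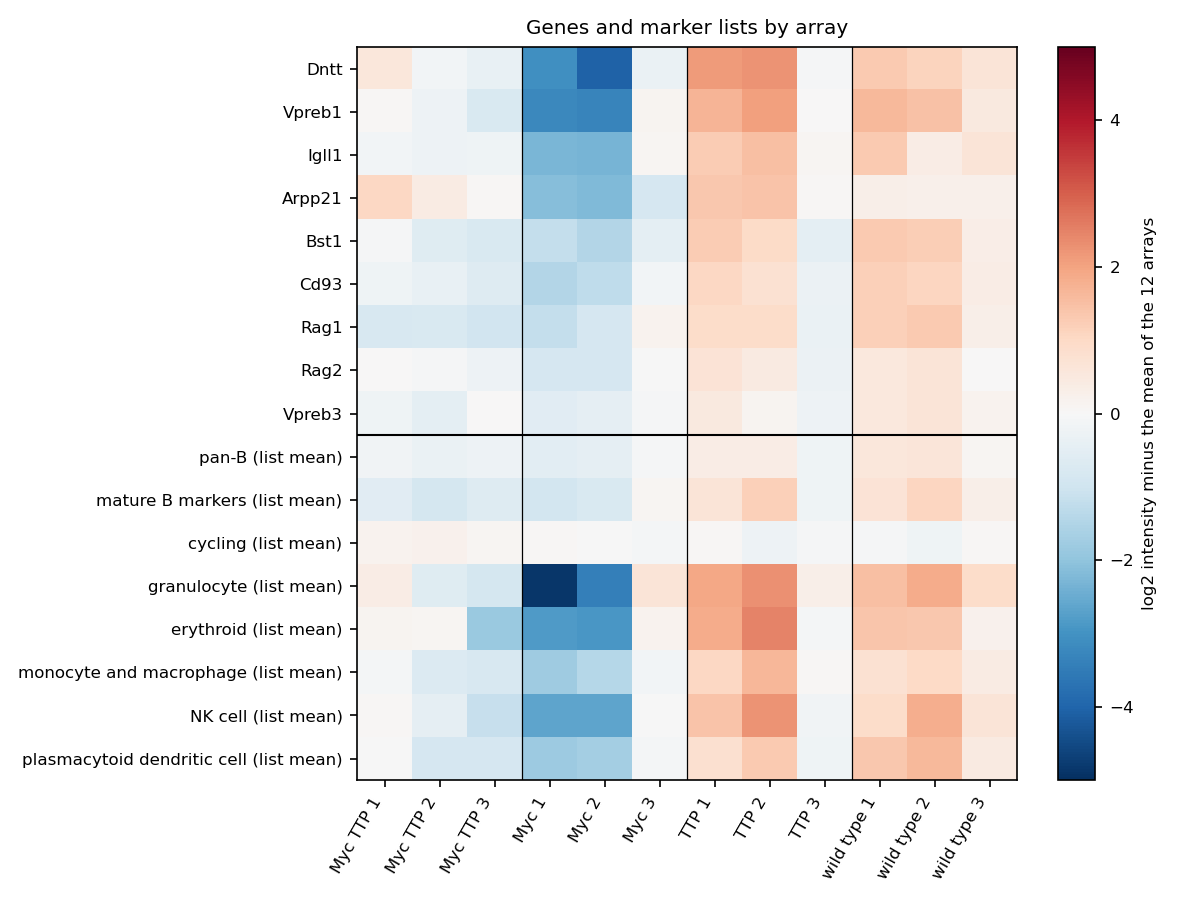
Log2 intensity minus the mean of the 12 arrays (colour, from -5 in blue to 5 in red) for the 9 genes and for the means of 8 marker lists (rows) on each array (columns, by group). The granulocyte mean falls furthest on Myc arrays 1 and 2, the arrays on which Dntt and Vpreb1 are lowest, and the cycling mean stays near 0.

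Other probe sets of the same genes mostly moved alike. The 10 listed genes had 22 probe sets, of which 17 were tested, all 17 were lower over both Myc differences as deposited, and 15 were called lower in the fit of every probe set, beside 18.1% of all 22245 probe sets tested. With pan-B centring in that fit, an alternative chosen after seeing the data, 9 of the 17 were called lower, and those of Vpreb3 and Rag2 and 1 of Cd93, at 0.33, were positive and not called. The 2 that were not called were probe sets of Cd93 with lower intensities than its main one, at -0.51 ± 0.26 (limma adjusted p = 0.147) and -0.87 ± 0.32 (adjusted p = 0.0554). The 5 untested probe sets, 3 of them for Arpp21, stayed at or below the detection floor on at least 11 of the 12 arrays.

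By the rule of highest Pearson correlation over the 12 arrays with the mean standardised level of the 9 genes, the 8 genes with the most similar pattern were Klf4, Dynlt3, Il12a, Bcr, Rgs10, Hk3, Plekho1 and Trp53inp2. Klf4, a zinc-finger transcription factor, had r = 0.996 (Spearman rho = 0.965), and the others had r of 0.988 to 0.992. This describes 12 arrays that share their grouping, with no test. For Myc over wild type Klf4 fell by 3.26 ± 0.68 on the log2 scale (limma adjusted p = 0.0479).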

How the data were processed

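The deposited values are intensity on a linear scale, summarised per probe set by the authors with GCRMA, per the submitters' processing notes, with no version stated. That method corrects background and normalizes between arrays, so a change in total RNA per cell cannot be seen. Scanner files were not used here.

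The log2 of each intensity was taken with no pseudocount. Symbols came from the platform annotation (34958 of 45101 probe sets with a single symbol), updated through a RefSeq table of GRCm38.p6. Genes with a log2 intensity over 4 on 3 or more of the 12 arrays were tested, which left out 7907. Differences were fitted with limma 3.58.1 in R 4.3.3 (lmFit, eBayes with an intensity trend) on 4 group means with 8 residual degrees of freedom, two-sided, with Benjamini-Hochberg adjustment over the 10287 genes. The fit was tested on simulated data with independent noise of the same SD for every gene. That test does not show how the fit behaves with the unequal spreads and shared array deviations of these data. Errors are SE of the fit beside differences and SD beside means. Precision is limited by the 3 arrays per group.

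The genes and the 17 lists, the member list included, were chosen with earlier results of these data known. Genes named from a list were up to 4 (2 for other cell types) with the smallest p for Myc over wild type. Atm, Rad50, Mre11a, Xrcc5, Foxo1, Ebf1, Pax5 and Plk1 fall outside that rule and were named after their values were seen. Same-numbered arrays deviated together between TTP and wild type (r = 0.498, 0.664 and 0.821), though arrays 1 and 2 did so across numbers too, and not in every pair between the other groups. The tests between pairs of genes were added after the data had been seen. Alternatives were another floor or none, quantile normalization, centring on pan-B genes or on the median, every probe set, no trend, a replicate block, and leaving out arrays.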

Additional observations from a re-analysis of the deposited data

How the results depend on the processing

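Two-group counts depended on the settings more than the mean of both Myc differences did. For Myc over wild type, where 8 genes were called, 0 were called with no floor, quantile normalization, every probe set with a single symbol, no intensity trend and the replicate block, and also with all probe sets and with median centring, both chosen after seeing the data. Leaving out 1 array gave 0 to 9 genes for Myc over wild type, 0 to 3 for Myc TTP over TTP (1 without wild-type array 3, 3 without TTP array 3) and 0 to 1 for Myc TTP over Myc. With pan-B centring 1 gene was called for Myc TTP over TTP. That comparison gave 5 genes with arrays wild type 3 and TTP 3 left out, and 8 when all 4 arrays numbered 3 were left out, which gave 7 for Myc TTP over Myc and 5 for the interaction. The counts for Myc TTP over Myc and the interaction rest on leaving out Myc array 3, the Myc array on which the 9 genes were highest. The 3, 5 and 8 genes for Myc TTP over TTP come from fits without TTP array 3, the TTP array on which the 9 genes were lowest. The replicate block, a fit with the array number as a term, left 9 genes called over both Myc differences, ended the 8 calls of Myc over wild type, and gave 0 calls in the other comparisons, as without it. The mean of both Myc differences had 8 or 9 calls in every other setting run and 6 with pan-B centring. With pan-B centring the sign turned for Vpreb3 in Myc over wild type (0.34), both Myc differences (0.26), the interaction (-0.17) and Myc TTP over Myc (-0.21) or TTP (0.17), for Rag2 in the wild-type comparisons of Myc (0.19) and TTP (0.16), Myc TTP over TTP (0.15), both Myc differences (0.17) and the interaction (-0.040), for Rag1 in the interaction (-0.39), and for Arpp21 in Myc TTP over TTP (0.090). Vpreb3 in Myc TTP over Myc also turned with quantile normalization (-0.059) and median centring (-0.14), Rag1 in the interaction with median centring (-0.11), and Rag1 in Myc TTP over Myc without the 4 arrays numbered 3 (0.24). Leaving out 1 array moved TTP over wild type across 0 for Vpreb1 (-0.34 to 0.69), Igll1 (-0.10 to 0.60), Rag2 (-0.30 to 0.18), Cd93 (-0.65 to 0.020) and Bst1 (-0.73 to 0.16), the interaction for Rag1 (-0.20 to 0.61), and Myc TTP over Myc for Rag1 (-0.51 to 0.18) and Vpreb3 (-0.0023 to 0.28). None of these turned values was called, and the cause was not tested. Of the other results for single genes under the alternatives, 1047 kept direction and side of the threshold, 37 gained a call and 129 lost one. Genes near the floor, such as Arpp21 on the Myc arrays, have compressed differences.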
